A study of Mus musculus with 6 samples.

Results

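Kinesins, cytoplasmic dynein and dynactin move cargo along microtubules, and 65 genes of these families were examined in the sciatic nerves of control and Dok6-/- mice at postnatal day 3 (P3). The genes were chosen by symbol among the 54532 rows of the count table: the numbered Kif kinesins, the kinesin light chains Klc1 to Klc4, the subunits of dynein-1 and dynein-2 (Dync and Dynl), and Dctn1 to Dctn6 of dynactin. They were divided by role into 39 transport motors, 11 mitotic kinesins, 8 ciliary motors, 6 other kinesins and the pseudogene Dynlt1-ps1. The filter on low counts left 62 for the test, 5 of which passed: Kif16b, Kif21a, Kif15 and Dync2h1 rose in the mutants and Dctn6 fell. This is 8.06% of the tested members, against 14.6% of all genes tested. The order turned only in the fit without the filter, which tested 30965 genes (14.1% against 9.74%).

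Axons of peripheral neurons depend on these motors, since nearly all of their proteins are made in the cell body. Kinesins of families 1, 2 and 3 carry vesicles and organelles toward microtubule plus ends, which in axons point to the terminal. Dynein-1, activated by dynactin and adaptor proteins, carries endosomes, lysosomes and neurotrophin signals back to the cell body. Another set of kinesins builds the spindle and divides the cell in mitosis, and dynein-2 with several kinesins serves the cilium.

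RNA was sequenced from 3 control and 3 Dok6-/- mice, with 1 library per mouse. Dok6 encodes an adaptor protein of receptor tyrosine kinases. The mutants, on the C57BL/6 background, came from a Dok6 allele with exon 3 floxed and EIIA-cre, which is active in the early fertilized egg, so the gene was deleted in every tissue and not in 1 cell type of the nerve. The controls are wild-type mice of the same age, described as littermates in the study's supplement, and the sample titles name no litter. Sex was not used as a factor.

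The libraries held 17699904 to 18678170 counts, which puts 3 counts, taken as the smallest detectable level, at 0.156 to 0.172 CPM (counts scaled to a library size of 1e+06). These limits cover counting error only, because the reads carry no molecular identifiers. Dok6 itself stood at 17.8, 11.9 and 17.5 CPM in the controls and at 7.26, 5.78 and 7.15 CPM in the mutants (log2 fold change -1.23, SE 0.20, adjusted p = 0.0118). All mutants lay below all controls, the direction that the labels call for. The gene-level count does not isolate the deleted exon.

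The marker genes of the labelled tissue were uneven between the libraries. Prx, which encodes a protein of myelinating Schwann cells, stood at 10.3, 5.45 and 3.83 CPM in the controls and at 28.2, 330 and 18.7 CPM in the mutants. The summed level of 9 Schwann cell markers ranged from 134 to 800 CPM in controls and from 259 to 2260 CPM in mutants, with 5 of 9 called higher. None of the 9 was at 0, but Prx, Egr2 and Cdh19 were low in every control. Markers of the central nervous system were present throughout: 12 of 12 exceeded 1 CPM in every library, including the glycine transporter gene Slc6a5 (177 to 264 CPM) and the astrocyte gene Gfap (189 to 555 CPM). Their summed level was 2320 to 3120 CPM in controls and 2080 to 3240 CPM in mutants, and 2 of 12, Pax2 and Slc32a1, were called lower. Whether the libraries hold RNA of the sciatic nerve alone was not tested.

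Other cell types differed as well. Sums over sensory neuron markers were 169 to 176 CPM in controls and 297 to 722 CPM in mutants (9 of 11 called higher), and those over muscle markers were 12.4 to 22.6 and 125 to 673 CPM (9 of 9 tested called higher). Fibroblast markers summed to 296 to 1130 and 1920 to 3060 CPM (3 of 6 called higher), and red cell markers to 431 to 746 and 75.4 to 290 CPM (4 of 5 called lower). General neuronal markers held 8220 to 8980 CPM in controls and 6940 to 8300 CPM in mutants, and none of 10 was called by edgeR (3 at an unadjusted p under 0.05, 2 called by DESeq2 and 0 by limma voom). The part of this difference in cell make-up in any result given here was not tested. In bulk RNA, fewer cells of a type and less RNA per cell cannot be told apart.

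Across all members, 4 of 62 were called higher and 1 lower in the mutants, which is 8.06%. Among all 17099 genes tested, 14.6% were called (edgeR quasi-likelihood test, adjusted p under 0.05), 8.62% higher and 6.01% lower. Only without the filter on low counts, with 30965 genes tested, did the order of these shares turn (14.1% of members and 9.74% of all genes). In every other fit the called share was smaller for the members. Their median log2 fold change was 0.14, against 0.01 over all genes, and their median absolute change was 0.23, against 0.25. The genotypes did not overlap for 25 of the 62 members (40.3%), near the 38.2% of all genes. No member passed the test with an absolute log2 fold change above 1, a size that 4.01% of all genes reached with a call, and the same holds for the study's limit of 2 (1.19% of all genes).

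The 5 calls depended on which mice were included. Without control mouse 1 only Kif13b was called higher, while Dctn6 and Dynlrb1 were called lower (4.84% of members, against 9.15% of all genes). Without control mouse 2 edgeR called no member, 11 had an unadjusted p under 0.05, and 68 genes were called in all (0.387% of those tested). Without control mouse 3, 5 members were called higher and none lower (8.06%, against 9.25% of all genes). Leaving out mutant mouse 1 or mutant mouse 2 left 1 higher call each, Kif21a and Dynlt1b (1.61% each time, against 5.1% and 4.16% of all genes). Without mutant mouse 3, 8 members were called higher and 1 lower (14.5%, against 16.7% of all genes).

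**Figure D1:**
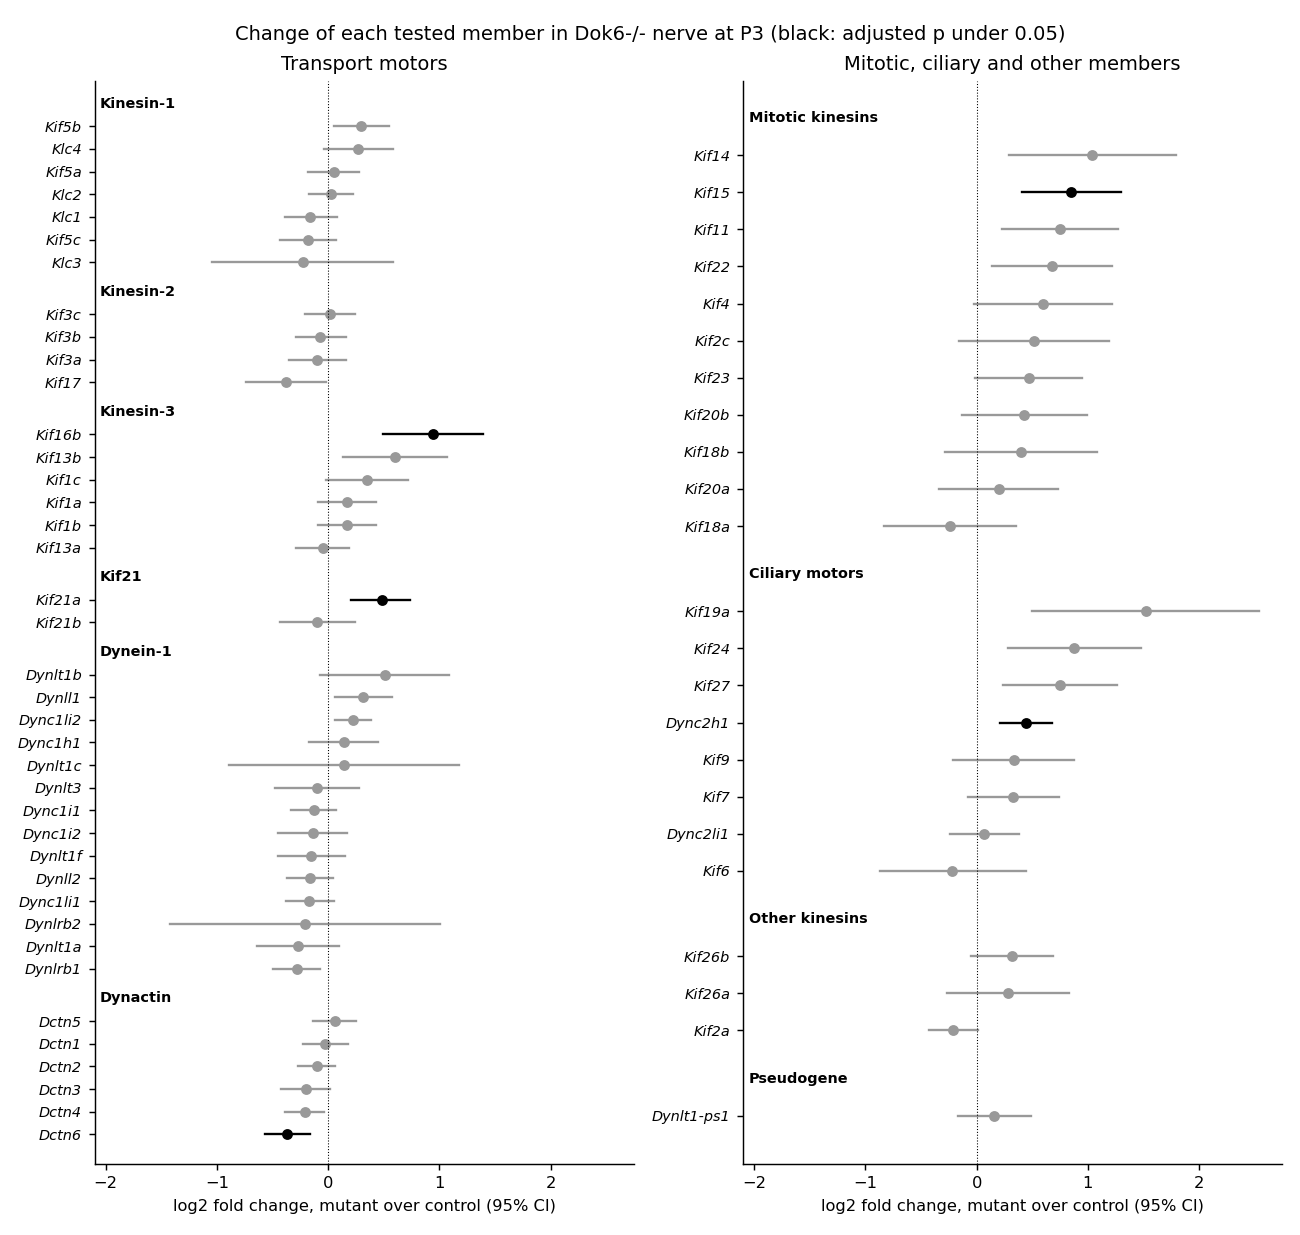
Log2 fold change of mutant over control for each of the 62 tested members (points) with the 95% confidence interval (lines), grouped by role, black where the adjusted p was under 0.05. Only 5 genes are black, and the mitotic kinesins and ciliary motors lie mostly to the right of 0 while the transport motors lie on both sides.

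Levels of the transport motors are those of libraries rich in neuronal and central nervous system RNA, as given above. Per kb of gene length, the highest control level was that of Dynll2, a light chain of dynein, at 245 ± 14.7 CPM per kb (SD, n = 3). Kif1a, the kinesin-3 of synaptic vesicle precursors, followed at 162 ± 17.9 CPM per kb. Klc1, the main kinesin-1 light chain in neurons, reached 157 ± 6.35 CPM per kb. Next in this order were Dynlrb1 (148 ± 15.8), the heavy chain Kif5c (143 ± 13.1) and the heavy chain Kif5a (120 ± 10.6 CPM per kb). From Kif1a to Kif5a, neighbours in the order did not differ beyond their spread. The dynein heavy chain Dync1h1 had 56.2 ± 8.59 and the dynactin subunit Dctn1 had 59.9 ± 1.22 CPM per kb, which overlap. In all, 29 of 39 transport motors had a control mean of at least 10 CPM per kb.

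**Figure D2:**
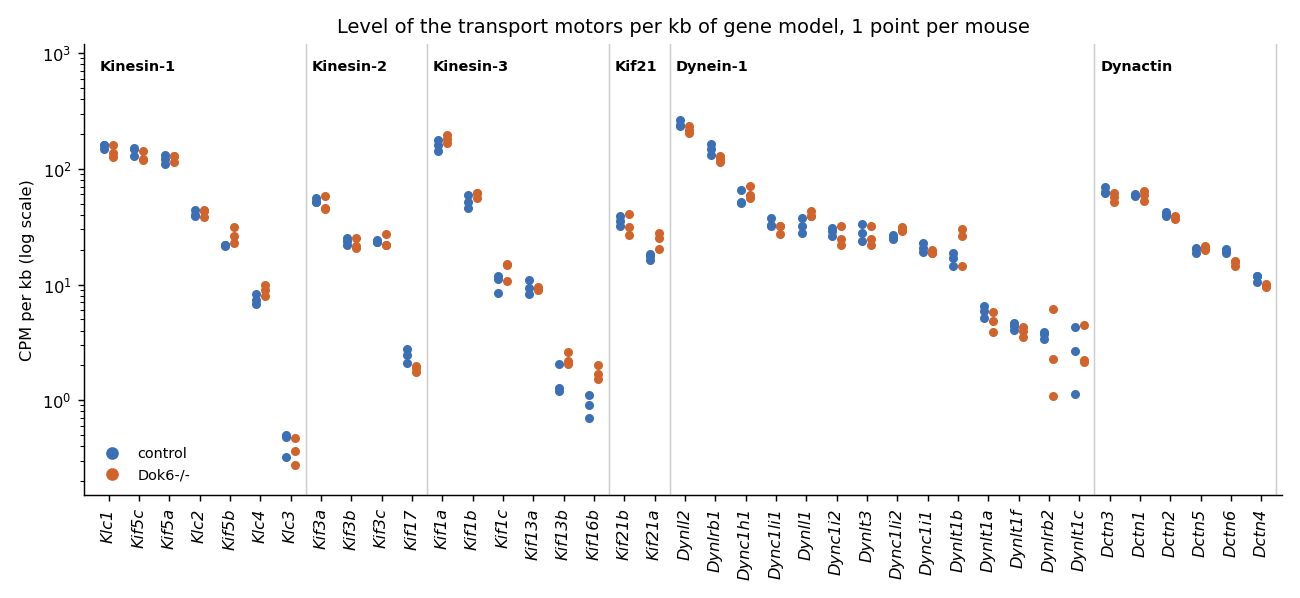
Level of the 39 transport motors in CPM per kb of gene length on a log scale, ordered within each family by control mean, with 1 point per mouse (blue, control, and orange, Dok6-/-). The genotypes overlap for most genes and are separated for 14 of the 39, among them Kif16b, Kif21a and Dctn6.

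Of these 39 transport motors, 2 were called higher, 1 lower and 36 not, and their median log2 fold change was -0.07. The 3 calls make 7.69%, against 14.6% of all genes, and without the filter 4 of 39 were called, against 9.74% of all genes. For 24 of the 39 the 95% confidence interval lay within 0.5 of zero on the log2 scale, and for 33 it lay within 1. Changes of more than 2-fold in those 33 genes lie outside their intervals. Mutants and controls did not overlap for 14 of the 39 (35.9%, against 38.2% of all genes), 6 with the mutants higher and 8 with the mutants lower.

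No kinesin-1 gene was called by edgeR, DESeq2 or limma voom (14.6%, 19.6% and 13.9% of all genes were called). In edgeR 1 of 7 had an unadjusted p under 0.05. Kif5a, the neuron-enriched heavy chain that carries neurofilaments, had 848, 764 and 912 CPM in controls and 807, 905 and 902 CPM in mutants, with a log2 fold change of 0.05 (95% confidence interval -0.18 to 0.28, adjusted p = 0.756). The mutants lay within the range of the controls, and without control mouse 2 the sign turned (-0.02). Kif5b, the heavy chain of all cell types, had 162, 163 and 158 CPM in controls and 193, 232 and 170 CPM in mutants (log2 fold change 0.30, SE 0.11, adjusted p = 0.0992). Its genotypes did not overlap, but the gene passed the test only when mutant mouse 3 was left out (adjusted p = 0.0294). Kif5c, a second heavy chain of neurons, had 1090, 1060 and 915 CPM against 843, 863 and 1010 CPM (log2 fold change -0.18, adjusted p = 0.297), with mutant mouse 3 inside the control range. Klc1 had 608, 655 and 649 CPM against 514, 553 and 650 CPM (log2 fold change -0.16, adjusted p = 0.332).

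Kinesin-2, which carries fodrin vesicles in axons and builds cilia, had no call among 4 genes by any of these tools, and 1 had an unadjusted p under 0.05 in edgeR. Kif3a, a motor subunit of the heterotrimer, had 184, 201 and 184 CPM in controls and 161, 163 and 208 CPM in mutants (log2 fold change -0.10, adjusted p = 0.579). Kif17, the homodimeric motor of dendritic receptors, was the member of this family farthest from 0. It stood at 9.64, 12.8 and 11.2 CPM in controls and 8.61, 9.11 and 8.11 CPM in mutants (log2 fold change -0.38, SE 0.16, adjusted p = 0.128). Its genotypes did not overlap, and the test did not pass.

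Kinesin-3 held the largest change among the transport motors. Kif16b, a motor that binds early endosomes through a lipid-binding domain, had 8.21, 10.1 and 6.35 CPM in controls and 15.2, 18.4 and 13.7 CPM in mutants. Every mutant lay above every control, and the gene rose 1.92-fold (log2 fold change 0.94, SE 0.20, adjusted p = 0.0222). Over the alternatives the log2 fold change stayed between 0.79 and 1.11, with adjusted p between 0.000506 and 0.0692. It was the only member still called in the fit with a replicate block (adjusted p = 0.0403), and it lost the call without control mouse 1, control mouse 2, mutant mouse 1 or mutant mouse 2.

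The main axonal motors of this family were not called. Kif1a had 1670, 1340 and 1510 CPM in controls and 1690, 1840 and 1560 CPM in mutants (log2 fold change 0.17, 95% confidence interval -0.09 to 0.43, adjusted p = 0.328). Kif1b, which carries mitochondria and vesicle precursors, had 1050, 917 and 808 CPM against 976, 1080 and 1080 CPM (log2 fold change 0.17, adjusted p = 0.328). Both overlapped between genotypes. Kif13b, a motor that binds the scaffold Dlg1, had 26.7, 15.7 and 16.5 CPM in controls and 27.0, 33.8 and 28.6 CPM in mutants (log2 fold change 0.60, adjusted p = 0.0806). Control mouse 1 lay next to the mutants, and the gene was called without that mouse and, with all mice, by DESeq2 and without the filter.

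The Kif21 pair, kinesin-4 motors of neurons, gave values of opposite sign in the test on all mice. Kif21a, which halts microtubule growth at the cell cortex, had 118, 106 and 115 CPM in controls and 131, 162 and 180 CPM in mutants. The genotypes did not overlap, and the gene rose 1.39-fold (log2 fold change 0.48, SE 0.12, adjusted p = 0.0315). The call was lost in 5 of 13 alternatives, without control mouse 1, 2 or 3, without mutant mouse 2 and with the replicate block, where adjusted p ranged up to 0.133. Kif21b had 472, 431 and 390 CPM in controls and 386, 329 and 495 CPM in mutants (log2 fold change -0.10, adjusted p = 0.686), and mutant mouse 3 was above all controls. Without mutant mouse 2 its sign turned (0.03).

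**Figure D3:**
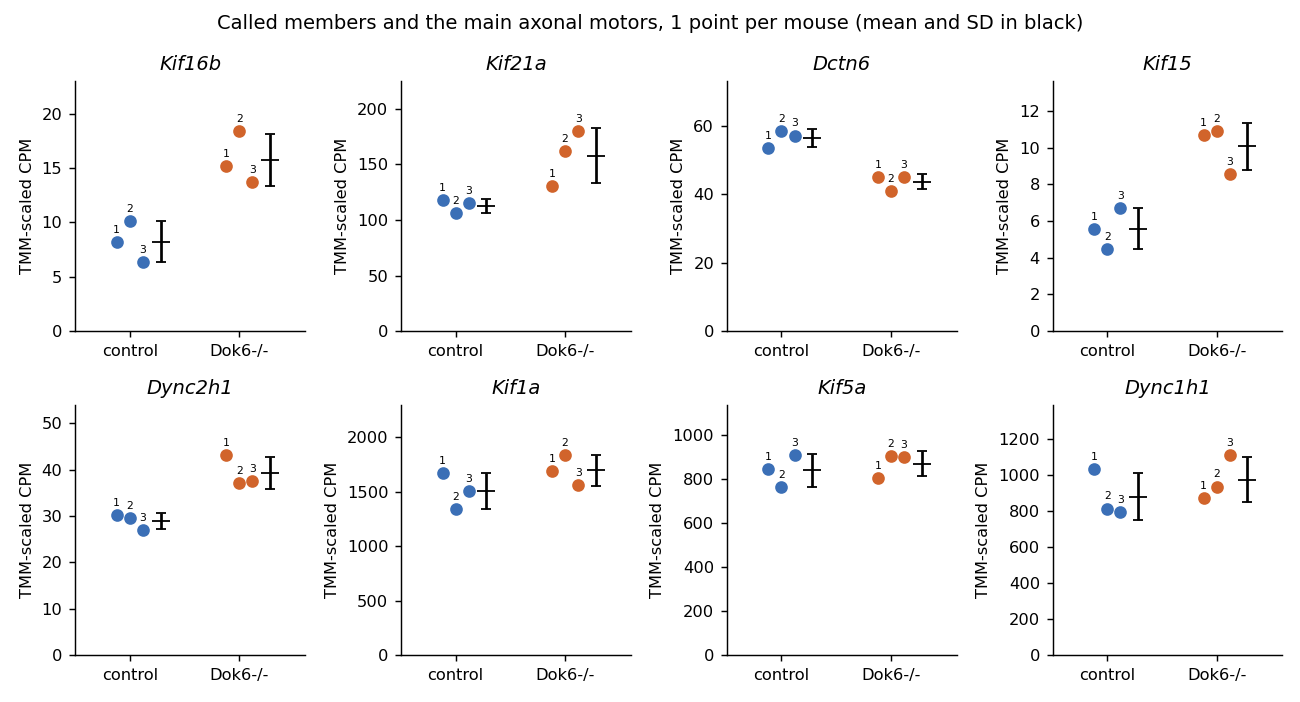
TMM-scaled CPM of the 5 called members and of Kif1a, Kif5a and Dync1h1, with 1 numbered point per mouse and the mean and SD in black, on axes that start at 0. In the called members the genotypes are separated, whereas the points of Kif1a, Kif5a and Dync1h1 overlap.

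No subunit of dynein-1 was called among 14 genes by edgeR, DESeq2 or limma voom (14.6%, 19.6% and 13.9% of all genes were called). In edgeR 3 of the 14 had an unadjusted p under 0.05. The genotypes did not overlap for 5 of the 14 (35.7%, against 38.2% of all genes), 2 with the mutants higher and 3 with the mutants lower. The log2 fold change was above 0 for 5 and below 0 for 9. Dync1h1, the heavy chain with the motor domain, had 1030, 812 and 792 CPM in controls and 872, 934 and 1110 CPM in mutants. The values overlapped, and the log2 fold change was 0.14 (95% confidence interval -0.17 to 0.45, adjusted p = 0.491). Dynll2, the light chain shared with myosin V, had 641, 651 and 716 CPM against 597, 558 and 638 CPM (log2 fold change -0.16, adjusted p = 0.246). Dynlrb1, the roadblock light chain, had 132, 151 and 164 CPM against 116, 130 and 122 CPM (log2 fold change -0.28, SE 0.09, adjusted p = 0.0753). Its mutants were all below its controls, and it was called only without control mouse 1. The 2 other genes with an unadjusted p under 0.05 had values above 0, also without overlap. Dync1li2, a light intermediate chain that binds cargo adaptors, had 161, 149 and 151 CPM against 174, 188 and 177 CPM (log2 fold change 0.22, SE 0.07, adjusted p = 0.0685). Dynll1, the paralog of Dynll2, had 108, 124 and 146 CPM against 152, 167 and 151 CPM (log2 fold change 0.31, SE 0.11, adjusted p = 0.0905) and was called only without control mouse 3.

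The light chains of the Dynlt1 group are hard to read separately inside their coding sequence. The rest of each gene was not compared base by base. In GENCODE M21 the 339 coding bases of Dynlt1a, Dynlt1c and Dynlt1f, all on chromosome 17, were identical to each other and to those of the processed pseudogene Dynlt1-ps1 on chromosome 6. They differed from Dynlt1b at 1 base (99.71% identity). The first 30 coding bases, which hold that base (in capitals in the Dynlt1a sequence), are shown because they are what the counting had to tell the copies apart with inside the coding sequence.
Dynlt1b: atggaagacttccaggcctcagaggagact
Dynlt1a: atggaagacttccaggcctcCgaggagact
Dynlt1b had 11.2, 13.0 and 14.4 CPM in controls and 20.4, 11.1 and 23.3 CPM in mutants (log2 fold change 0.51, SE 0.25, adjusted p = 0.201). Mutant mouse 2 lay below the controls, and without it the gene was called (adjusted p = 0.0442). Summed over the 4 genes and the pseudogene, the level was 96.6, 97.4 and 92.3 CPM in controls and 109, 78.2 and 112 CPM in mutants, with mutant mouse 2 lowest and the other mutants above the controls.

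For subunits with paralogs, the share that each paralog took of its family per kb was also compared. These 10 families were set up after the values had been seen, so no test is given. The genotypes did not overlap for 4 of 10, near the 38.2% of single genes that did not. Dync1li2 took 45.1%, 39.8% and 43.4% of the light intermediate chain level in controls and 51.3%, 49.6% and 47.7% in mutants. Dynll1 took 10.6%, 11.9% and 12.6% of the Dynll level in controls and 15.2%, 17.3% and 14.3% in mutants. Kif13b took 13.5 ± 2.12% of the Kif13 level in controls and 19.9 ± 1.34% in mutants, and Kif21a took 33.1 ± 2.19% and 42.5 ± 4.87% of the Kif21 level (SD, n = 3). The share of Kif5b in the Kif5 level was 7.64 ± 0.221% and 9.68 ± 1.69%, where mutant mouse 3 (7.83%) lay inside the control range. For Kif1b in the Kif1a and Kif1b level it was 24.6% in both genotypes, with overlap.

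Dynactin, which links dynein to its cargo and keeps it on the microtubule, had 1 call among 6 genes (16.7%, near the 14.6% of all genes). Dctn6, a small subunit of the pointed-end complex of the dynactin filament, had 53.4, 58.4 and 57.1 CPM in controls and 44.9, 41.0 and 45.1 CPM in mutants. Every mutant lay below every control, and the gene fell to 0.776 of the control level (log2 fold change -0.37, SE 0.09, adjusted p = 0.0304). The call was lost without control mouse 2, control mouse 3, mutant mouse 1 or mutant mouse 2 and with the replicate block, where the log2 fold change was between -0.39 and -0.32 and adjusted p reached 0.121. An exon of Dctn6 (chromosome 8, 34090420 to 34108796, minus strand) overlaps the antisense gene Gm26768, which was counted at 0.106 to 0.573 CPM. The labels name the NEBNext Ultra library kit and the study's methods its Directional version, which marks strand. The use of strand in counting is not given in the sources used here, so reads of the pair cannot be told apart.

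No other Dctn gene passed the test. Dctn1, the large arm that binds microtubules and dynein, had 398, 390 and 382 CPM in controls and 346, 386 and 416 CPM in mutants, with a log2 fold change of -0.03 (95% confidence interval -0.23 to 0.18, adjusted p = 0.868) whose sign turned without mutant mouse 1 (0.04). Dctn3, at the shoulder of the complex, had 64.7, 71.9 and 65.9 CPM against 53.5, 59.0 and 64.3 CPM (log2 fold change -0.20, adjusted p = 0.190). At the pointed end, Dctn4 had 122, 137 and 136 CPM against 111, 113 and 117 CPM (log2 fold change -0.21, adjusted p = 0.0887), while Dctn5 had 53.8, 54.6 and 49.2 CPM against 52.8, 56.8 and 54.4 CPM (log2 fold change 0.06, adjusted p = 0.674). For Dctn2, Dctn3, Dctn4 and Dctn6 the genotypes did not overlap, and for all 4 the mutants were lower, a separation in that direction that 18.7% of all genes showed. Of the 4, only Dctn6 passed the test.

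The 6 dynactin subunits whose symbols do not begin with Dctn held 1 call (16.7%, against 14.6% of all genes). Actr10, the actin-related protein that caps the pointed end of the filament with Dctn4, Dctn5 and Dctn6, had 132, 148 and 150 CPM in controls and 113, 116 and 124 CPM in mutants. The genotypes did not overlap, and Actr10 fell (log2 fold change -0.28, SE 0.08, adjusted p = 0.0490), close to the threshold. The call was lost with limma voom, without the filter, with at least 10 counts in every library, with the replicate block and without control mouse 2, control mouse 3, mutant mouse 1 or mutant mouse 2. Actr1a, the protein that forms the filament, had 340, 362 and 321 CPM against 287, 293 and 311 CPM (log2 fold change -0.20, adjusted p = 0.129), and the barbed-end protein gene Capza1 had 62.9, 63.7 and 61.6 CPM against 71.8, 73.9 and 70.3 CPM (log2 fold change 0.20, adjusted p = 0.104).

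**Figure D4:**
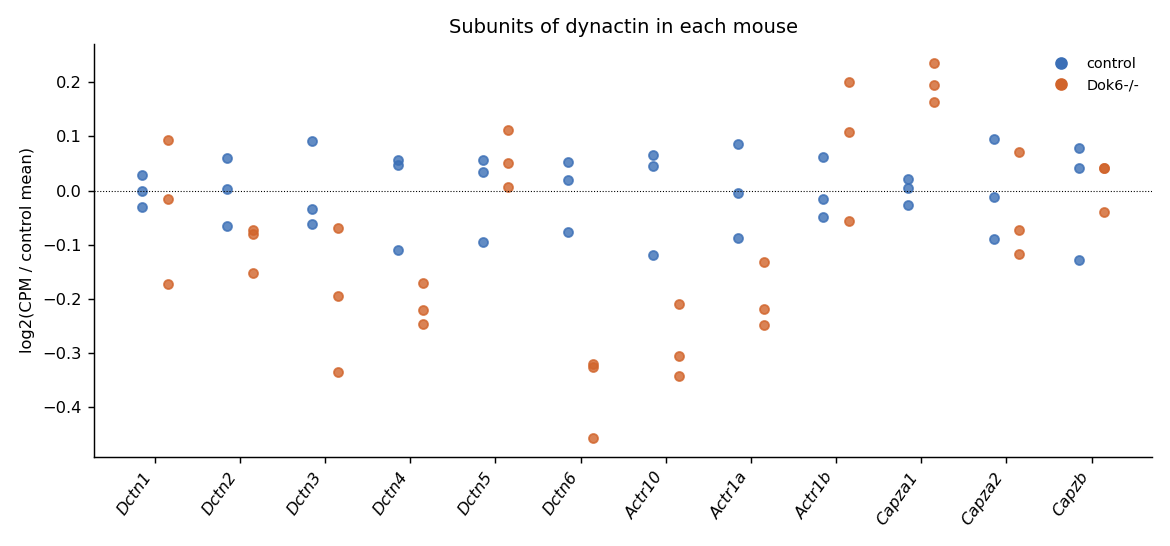
Level of 12 dynactin subunits in each mouse as log2 of CPM over the control mean of the same gene (blue, control, and orange, Dok6-/-). The mutant points of Dctn6 and Actr10 lie below those of all controls, those of Dctn5 overlap the controls and those of Capza1 lie above.

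Adaptors and regulators of the motors were examined as a list of 50 genes outside the symbol rule, which includes those 6 dynactin genes. Of the 49 tested, 3 were called higher and 4 lower (14.3%, against 14.6% of all genes). None of 20 kinesin adaptors passed in edgeR (3 at an unadjusted p under 0.05, 2 called by DESeq2 and 1 by limma voom), among them the mitochondrial adaptors Trak1, Trak2, Rhot1 and Rhot2. Of 23 dynein adaptors and regulators tested, 3 were called higher and 3 lower (26.1%, against 14.6% of all genes). The genotypes were separated for 17 of these 23 (73.9%, against 38.2% of all genes) and for 5 of the 20 kinesin adaptors (25.0%). The lowest adjusted p belonged to Rab5a, the GTPase of early endosomes, with 125, 128 and 130 CPM in controls and 98.6, 103 and 91.1 CPM in mutants (log2 fold change -0.39, SE 0.07, adjusted p = 0.0173).

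Htt, a scaffold for dynein and kinesin-1 on vesicles, had 97.0, 82.0 and 87.0 CPM in controls and 118, 121 and 118 CPM in mutants and rose (log2 fold change 0.42, SE 0.08, adjusted p = 0.0183). Hap1, its partner that binds Dctn1, had 911, 887 and 874 CPM against 648, 551 and 705 CPM and fell (log2 fold change -0.49, SE 0.11, adjusted p = 0.0234). Neither gene overlapped between genotypes. The call was lost in 4 of 13 alternatives for Htt and in 5 for Hap1, each time without control mouse 2, mutant mouse 1 or mutant mouse 2 and with the replicate block, and for Hap1 also without control mouse 1. Hook1, an adaptor of dynein to endosomes, fell from 108, 111 and 81.3 CPM to 69.2, 70.0 and 80.0 CPM (log2 fold change -0.45, adjusted p = 0.0462), and control mouse 3 lay just above mutant mouse 3.

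The other increases were those of Rab11fip3 and Nde1. Rab11fip3, an adaptor of recycling endosomes, had 77.1, 62.9 and 69.5 CPM in controls and 93.7, 89.1 and 85.3 CPM in mutants (log2 fold change 0.36, adjusted p = 0.0402). Nde1, a dynein regulator that is used in dividing progenitors, had 12.9, 12.2 and 12.4 CPM against 22.4, 24.9 and 14.7 CPM (log2 fold change 0.72, SE 0.19, adjusted p = 0.0407). Without control mouse 2 or with the replicate block none of the 7 calls held in edgeR, and 12 of the 49 genes had an unadjusted p under 0.05 in each of these fits. Nde1 lost its call in 7 of 13 alternatives, with limma voom (adjusted p = 0.0596), the block and each mouse left out but mutant mouse 3, and over all alternatives its adjusted p was 0.00626 to 0.142. Hook1 lost its call in 6, among them limma voom (adjusted p = 0.0550), and its adjusted p reached 0.172 without control mouse 2.

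The mitotic kinesins had control means of 0.171 (Kif14) to 2.16 CPM per kb (Kif11). The transport motors Kif13b (1.51), Kif16b (0.906) and Klc3 (0.433) lay in this range, while 29 of 39 had at least 10 CPM per kb. Of 11, 1 was called higher and none lower, and 10 had a log2 fold change above 0. The called share was 9.09%, against 8.62% of all genes called higher. It was larger with DESeq2 (4 of 11, against 1815 of 17099 genes called higher). The same held without the filter (3 of 11, against 1884 of 30965) and with limma voom (2 of 11, against 1344 of 17099). The median log2 fold change was 0.52, against -0.07 for the transport motors and 0.01 for all genes. For 6 of the 11 every mutant lay above every control (54.5%, against 19.6% of all genes in that direction).

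Kif15, a kinesin-12 that holds spindle poles apart, had 5.57, 4.47 and 6.69 CPM in controls and 10.7, 10.9 and 8.58 CPM in mutants. The gene rose 1.81-fold (log2 fold change 0.85, SE 0.20, adjusted p = 0.0269), without overlap. The call was lost without control mouse 1, control mouse 2, mutant mouse 1 or mutant mouse 2 and with the replicate block, with log2 fold changes of 0.71 to 1.01 and adjusted p of 0.00374 to 0.109 over all alternatives.

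Kif11, the main motor that separates the spindle poles, had 8.32, 8.14 and 14.8 CPM in controls and 17.5, 18.5 and 16.5 CPM in mutants (log2 fold change 0.75, SE 0.23, adjusted p = 0.0596). Control mouse 3 lay close to the mutants, and without it the log2 fold change was 1.09 (adjusted p = 0.0199). Kif14, a kinesin of the late midzone and of cytokinesis, had 1.09, 1.95 and 2.29 CPM against 2.85, 4.64 and 3.50 CPM (log2 fold change 1.04, SE 0.33, adjusted p = 0.0649). Kif23, the centralspindlin motor, had 4.36, 3.90 and 5.60 CPM against 7.00, 6.87 and 5.35 CPM (log2 fold change 0.47, adjusted p = 0.153), with mutant mouse 3 inside the control range. Kif18a, which dampens chromosome movements, was the only mitotic kinesin with a value below 0 (log2 fold change -0.24, adjusted p = 0.551). DESeq2 called 4 mitotic kinesins higher, Kif11, Kif14, Kif15 and Kif22, where edgeR called 1.

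Of 10 proliferation markers, 2 were called higher, Top2a and Birc5, and 8 were not called (8.62% of all genes were called higher). All 10 had a log2 fold change above 0 (median 0.62), and for 7 the mutants lay above all controls (19.6% of all genes). Their summed level was 113, 74.4 and 142 CPM in controls and 177, 206 and 179 CPM in mutants. The mitotic kinesins summed to 49.5, 39.7 and 68.3 CPM in controls and 80.7, 85.0 and 69.0 CPM in mutants. In both sums control mouse 2 was lowest and control mouse 3 was the highest control, and the kinesins made 43.9%, 53.4% and 48.0% of the marker sum in controls and 45.7%, 41.2% and 38.7% in mutants. The part of the number of dividing cells in the values of the mitotic kinesins was not tested.

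**Figure D5:**
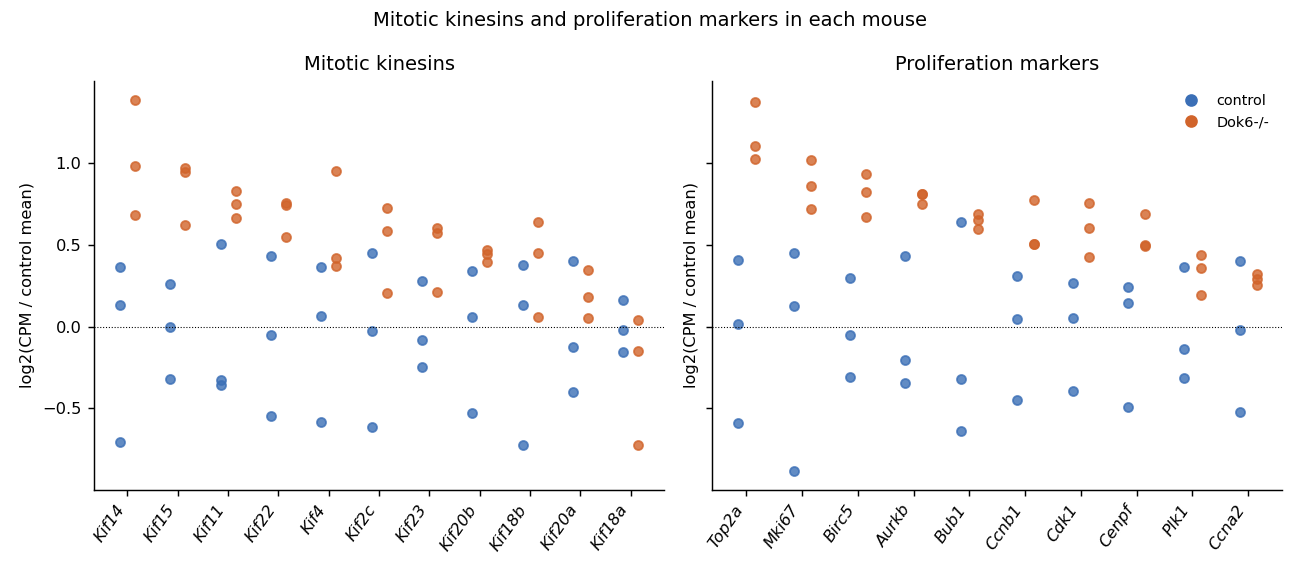
Level of 11 mitotic kinesins and 10 proliferation markers in each mouse as log2 of CPM over the control mean of the same gene (blue, control, and orange, Dok6-/-). In both sets most orange points lie above 0 and the controls spread widely, while the mutant points of Kif18a lie around and below 0.

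The promoters of the mitotic kinesins share letters that those of the transport motors mostly lack. The 6-base string TTTGAA, known as the core of a cell-cycle element that holds late cell-cycle genes off in resting cells, was searched on both strands in the RefSeq promoter windows of GRCm38.p6 (250 bases before to 50 after each start). It was searched after the values had been seen. It was present in 9 of 10 mitotic kinesin windows (90.0%), in 17.9% of all 32851 windows, in 2 of 33 windows of transport motors (6.1%) and in 5 of 8 windows of proliferation markers (62.5%). Within 30 bases of the start it was present in 7 of 10 mitotic kinesin windows (70.0%), in 3.14% of all windows and in none of the 33. The window of Kif18a lacks it, and Kif20a was not matched. A second string, CCAAT, was present in 6 of 10 mitotic kinesin windows (60.0%), in 4 of 7 windows of ciliary motors (57.1%), in 7 of 8 of proliferation markers (87.5%), in 36.4% of those of transport motors and in 37.4% of all.

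Stretches of 30 bases around the match are shown for 5 of the genes with one near the start, in the direction of the gene, with the string in capitals (TTCAAA is the same string on the opposite strand).
Kif15: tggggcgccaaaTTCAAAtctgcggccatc
Kif11: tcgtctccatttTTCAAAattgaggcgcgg
Kif22: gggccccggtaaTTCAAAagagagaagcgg
Kif23: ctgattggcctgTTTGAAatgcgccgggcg
Kif4: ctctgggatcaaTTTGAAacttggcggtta
They lie at chr9:122951050-122951079 (plus strand) for Kif15, chr19:37376351-37376380 (plus) for Kif11, chr7:127042420-127042449 (minus) for Kif22, chr9:61946780-61946809 (minus) for Kif23 and chrX:100626072-100626101 (plus) for Kif4. With the start counted as 1, the string begins at -19 in Kif15 and Kif11, at -17 in Kif22, at 3 in Kif23 and at 20 in Kif4. These matches describe letters only and were not tied to the expression values.

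Of the 8 ciliary motors, 1 was called higher and none lower (12.5%, against 8.62% of all genes called higher), and 7 had a log2 fold change above 0. DESeq2 called 2 of the 8 higher (1815 of 17099 genes), as did the fit without the filter (1884 of 30965 genes). For 5 of the 8 every mutant lay above every control (62.5%, against 19.6% of all genes). Dync2h1, the heavy chain of the dynein that returns cargo from the ciliary tip, had 30.2, 29.5 and 26.9 CPM in controls and 43.2, 37.0 and 37.5 CPM in mutants. The genotypes did not overlap, and the gene rose 1.36-fold (log2 fold change 0.44, SE 0.10, adjusted p = 0.0272). The call was lost without any single mouse other than mutant mouse 3, and with the replicate block, where adjusted p reached 0.103 and the log2 fold change stayed between 0.37 and 0.48. Dync2li1, the light intermediate chain of the same motor, had 12.3, 13.2 and 11.2 CPM against 13.8, 12.5 and 12.3 CPM (log2 fold change 0.07, adjusted p = 0.751), with overlap.

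The largest fold change of any tested member was that of Kif19a, a kinesin that shortens motile cilia. It had 7.92, 5.85 and 8.35 CPM in controls and 15.2, 38.5 and 9.96 CPM in mutants (log2 fold change 1.52, SE 0.45, adjusted p = 0.0533). Mutant mouse 2 carried most of this difference, and without it the log2 fold change was 0.77 (adjusted p = 0.102). Kif24, which restrains the formation of cilia, had 1.95, 1.49 and 2.12 CPM against 3.63, 3.93 and 2.70 CPM (log2 fold change 0.88, adjusted p = 0.0560). Kif27 had 4.19, 3.38 and 3.95 CPM against 8.20, 5.24 and 5.93 CPM (log2 fold change 0.75, adjusted p = 0.0552), and the Hedgehog pathway kinesin Kif7 had 7.29, 5.10 and 6.29 CPM against 8.35, 7.36 and 7.79 CPM (log2 fold change 0.33, adjusted p = 0.235). For these 4 genes every mutant lay above every control, as for 19.6% of all genes, and none of the 4 passed the edgeR test. Other settings called single genes of the 4: Kif27 with DESeq2, Kif19a without the filter (adjusted p = 0.00307) or without mutant mouse 3, and Kif24 with at least 10 counts in every library or without mutant mouse 3. Markers of motile cilia showed no call among 9 genes by edgeR, DESeq2 or limma voom and 0 at an unadjusted p under 0.05, with sums of 73.5 to 96.0 CPM in controls and 72.8 to 130 CPM in mutants.

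The other kinesins were not called by edgeR, DESeq2 or limma voom, and 0 had an unadjusted p under 0.05. Kif2a, a kinesin that removes tubulin from microtubule ends and limits axon branches, had 137, 160 and 170 CPM in controls and 130, 129 and 144 CPM in mutants (log2 fold change -0.21, adjusted p = 0.161). Kif26b, a kinesin without ATPase activity, had 200, 200 and 150 CPM against 195, 208 and 285 CPM (log2 fold change 0.32, adjusted p = 0.208). Kif2b was at 0 in every library, which allows up to 0.156 to 0.172 CPM. Kif12 reached at most 0.172 CPM and Kif28 at most 0.400 CPM, and all 3 fell under the filter on low counts.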

How the data were processed

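RNA of P3 sciatic nerve was sequenced by the authors (Illumina). The deposited values are raw counts per gene with a gene length. The submitters' processing notes name the build mm10, and the aligner, counter and use of strand are not given in the sources used here. All 6 libraries entered one model of edgeR 4.0.16 (R 4.3.3; filterByExpr, TMM, glmQLFit and glmQLFTest on genotype, no block, Benjamini-Hochberg over 17099 genes, adjusted p under 0.05). Confidence intervals (95%) use the standard error from the F statistic. CPM are TMM-scaled, and CPM per kb use the deposited length. The biological coefficient of variation was 16.6%. P-values measure the spread between 3 mice per genotype.

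Members and lists were chosen with earlier results of these data known. Named genes are the called members, 12 main motors, the highest and the most changed member of each role, the 3 called adaptor or regulator genes of lowest adjusted p in each direction, and Dok6. Others are named for their place in a complex, after their values were seen. One marker gene of the Schwann cell list is not reported here. Replicate libraries differed beyond sampling noise (chi-square per degree of freedom 9.42 to 36.6). Positions and coding sequences come from GENCODE M21 and promoters from RefSeq. Stretches of at least 200 bases with 95% identity to another gene (blastn 2.17.0) were found in 19 members, and 21 members overlap an exon of another gene.

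Alternatives were RLE and upper-quartile scaling, DESeq2 1.42.0, limma voom (limma 3.58.1), no filter, at least 10 counts in every library, a replicate block, each mouse left out, and absolute log2 fold changes above 1 and 2.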

Additional observations from a re-analysis of the deposited data

How the results depend on the processing

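Direction held for 34 named genes under 13 alternatives each, except 3 reversals of values near 0: with mice left out, Dctn1 ranged from -0.09 to 0.04 (reversed without mutant mouse 1), Kif5a from -0.02 to 0.12 (without control mouse 2) and Kif21b from -0.27 to 0.03 (without mutant mouse 2). Calls were lost in 55 of these 442 combinations, 43 of them when a mouse was left out, and gained in 10. With each mouse left out in turn, members called ranged from 0 to 8 higher and 0 to 2 lower, transport motors from 0 to 4 higher and 0 to 2 lower, mitotic kinesins from 0 to 3 higher, and adaptor and regulator genes from 0 to 3 higher and 0 to 6 lower. Over these fits 0.387% to 16.7% of all genes were called.

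The replicate block left 1 member higher (Kif16b) and 0 lower, 1 transport motor higher and 0 lower, 0 mitotic kinesins higher, and 0 adaptor and regulator genes in either direction. Deviations from the genotype mean were not positively correlated between same-numbered mice (-0.01, -0.17 and -0.24). Whether any of these mice shared a litter cannot be told from these values. DESeq2 called 9 members higher and no filter 8, with 4 and 3 mitotic kinesins, and limma voom called 2 mitotic kinesins. With an absolute log2 fold change above 1 or 2, 0 members, transport motors, mitotic kinesins, and adaptor or regulator genes were called in either direction. Without overlap stood 24 members under RLE and under upper-quartile scaling, against 25. Over all genes the calls were 1474 higher and 1028 lower with TMM, 1815 and 1530 with DESeq2, 432 and 130 with the block, and 56 and 12 without control mouse 2. The cause of these differences was not tested. Precision was low for members with wide 95% confidence intervals, such as Klc3 (0.860 to 1.32 CPM in controls, -1.04 to 0.58) and Dynlt1c (4.23 to 16.1 CPM, -0.89 to 1.18).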
